A study of Homo sapiens with 40 samples.

Results

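The CENP-A ChIP-Seq peaks described here lay beside the centromeres of chromosomes 7 and 11 in SW480 cells, an established human colon cancer line. A peak was a member when it fell wholly within 1 of 4 windows of 5 Mb on hg19, which are chr7:53000000-58000000 and chr7:61700000-66700000 on either side of the chromosome 7 centromere, and chr11:46600000-51600000 and chr11:55700000-60700000 on either side of that of chromosome 11. The rule used position only, and it took 288 of the 5748 peaks of the 6 deposited lists. These were 25 of 408 peaks in control, 37 of 952 after DAXX knockdown, 52 of 848 after HIRA knockdown, 38 of 940 after HJURP knockdown, 52 of 1018 after HIRA+DAXX knockdown and 84 of 1582 after HIRA+HJURP knockdown. No peak of any list crossed a window edge.

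Cells of all 6 conditions were SW480 electroporated with siRNA and harvested at 72 hours. The control cells are named untreated in the sample labels and control siRNA in the study's text, the single knockdowns targeted DAXX, HIRA or HJURP, and the double knockdowns targeted HIRA with DAXX or HIRA with HJURP. Nuclei were digested with MNase without crosslinking. For CENP-A immunoprecipitation the study lists ACA serum, which is human serum against several centromere proteins. Of the 20 ChIP libraries, control, DAXX, HIRA and HJURP had 4 each and the double knockdowns 2 each, and each had an input library. All values come from 1 line and from 1 merged peak list per condition, with no height, score, read count or replicate, so there is no spread to set a difference against and no test was possible. The number of libraries and the double knockdown cannot be told apart, and how far each protein was depleted was not analysed here.

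CENP-A is the histone H3 variant that marks the centromere and carries the kinetochore. HJURP is its dedicated chaperone, which loads it at centromeres, whereas HIRA and DAXX are chaperones of the histone variant H3.3. DAXX can also carry CENP-A when it is in excess. In SW480 cells, the study found both HIRA and DAXX bound to endogenous CENP-A. Human centromeres are built on alpha satellite, a tandemly repeated sequence whose unit is close to 171 bases, and part of its units hold the CENP-B box, the site bound by the centromere protein CENP-B. Toward the chromosome arms, the homogeneous arrays give way to diverged alpha satellite and other repeats. The question here was what the peaks of each chaperone knockdown look like at these borders, next to those of control.

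The peaks fell into 4 stretches of sequence, all on the chromosome 7 long arm and the chromosome 11 short arm. Of the 288, 218 were in the chromosome 7 long-arm window and 70 in the chromosome 11 short-arm window, and the other two windows held 0 in every list. All 218 chromosome 7 peaks lay within 304.7 kb of the edge of their window nearest the centromere, and 65 of the 70 chromosome 11 peaks within 31.4 kb of theirs. Much of the sequence under the peaks was tandemly repeated, with several periods. When every 1000-bp tile of the 4 windows was compared with itself shifted by 20 to 400 bases, 95.2% of the 84 tiles centred in a peak matched at 40% or more of their bases at the best shift, against 8.99% of the other 19523 tiles. Most of the latter lay outside the stretches that hold the peaks, and within those stretches the tiles outside peaks matched more often than that, as given with them. The CENP-B box core, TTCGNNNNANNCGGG on either strand, was found in 0.367% of all 19607 tiles and in 16 of those 84 tiles, or 19.0%. Tiles called outside peaks are those centred outside them, and such a tile can still include peak bases. After the assembly gap of chromosome 7 the core was in 81.8% of tiles centred in peaks and 36% of those outside. Next to the centromere gap of chromosome 11 these shares were 70% and 35.7%. At the distal chromosome 11 sites 9.88% of tiles outside peaks held it, and before the chromosome 7 gap no tile did. A match to these letters is a description and not a measured binding site.

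The stretch before the centromere gap of chromosome 11 held a repeat within a repeat. It is shown here because the last 5 control peaks before that gap followed it. The stretch matched itself best at a shift of 171 bases, with 55.0% of bases equal, and, among shifts of 1000 to 4000, best at 2047, with 43.7%. The 5 sequences that follow are CENP-B cores that lay in control peaks, each with 50 bases on both sides, from the plus strand of GRCh37 (the assembly of hg19). Capitals mark the 15 bases of the core, which is on the minus strand here and so reads as its reverse complement.
Copy 1, chr11:51582696-51582810: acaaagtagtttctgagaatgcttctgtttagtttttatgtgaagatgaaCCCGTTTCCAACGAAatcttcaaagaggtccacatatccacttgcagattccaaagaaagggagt
Copy 2, chr11:51584742-51584856: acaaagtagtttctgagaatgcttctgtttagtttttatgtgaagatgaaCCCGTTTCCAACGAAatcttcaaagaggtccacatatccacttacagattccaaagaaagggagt
Copy 3, chr11:51586788-51586902: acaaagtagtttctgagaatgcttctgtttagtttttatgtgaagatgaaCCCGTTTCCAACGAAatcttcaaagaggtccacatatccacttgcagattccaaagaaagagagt
Copy 4, chr11:51588835-51588949: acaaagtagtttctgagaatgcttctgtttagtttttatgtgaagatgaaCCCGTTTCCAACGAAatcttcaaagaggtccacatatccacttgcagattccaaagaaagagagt
Copy 5, chr11:51590882-51590996: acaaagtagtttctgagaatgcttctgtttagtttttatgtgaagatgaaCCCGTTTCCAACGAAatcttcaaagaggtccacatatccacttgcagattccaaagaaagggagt
The starts of these copies were 2046 or 2047 bases apart, and any pair of them differed at no more than 2 of 115 positions. Between them lay 2 cores in another unit of the same repeat that no list covered, which follow with the same marking.
Uncovered core 1, chr11:51584063-51584177: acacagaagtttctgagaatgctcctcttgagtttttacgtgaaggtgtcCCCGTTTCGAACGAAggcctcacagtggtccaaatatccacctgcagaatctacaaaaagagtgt
Uncovered core 2, chr11:51586108-51586222: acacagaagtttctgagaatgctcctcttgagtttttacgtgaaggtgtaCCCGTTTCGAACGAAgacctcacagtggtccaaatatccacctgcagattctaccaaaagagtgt

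Of the chromosome 7 stretches with peaks, only the one after the 50-kb assembly gap held cores. Its best shift was 171 and, in the sites nearest the gap, 340. The first 3 sequences were covered in all 6 lists and the fourth in none, with the core in capitals on the plus strand.
Covered core 1, chr7:61968256-61968370: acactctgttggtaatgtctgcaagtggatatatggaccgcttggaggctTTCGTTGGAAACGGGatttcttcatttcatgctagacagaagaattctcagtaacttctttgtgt
Covered core 2, chr7:61968936-61969050: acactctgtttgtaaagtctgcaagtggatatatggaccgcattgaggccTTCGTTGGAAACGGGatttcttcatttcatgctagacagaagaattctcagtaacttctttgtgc
Covered core 3, chr7:61969276-61969390: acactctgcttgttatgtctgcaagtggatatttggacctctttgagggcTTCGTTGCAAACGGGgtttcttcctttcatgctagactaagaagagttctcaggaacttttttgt
Core in no peak, chr7:61972674-61972788: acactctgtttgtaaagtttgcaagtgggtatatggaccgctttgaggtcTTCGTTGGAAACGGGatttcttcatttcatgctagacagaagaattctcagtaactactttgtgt
Compared position by position without gaps, the core in no peak differed from the covered sequences at 8, 6 and 29 of 115 positions. The first pair of covered sequences differed from each other at 6. In such a comparison extra bases in a sequence, as in the third covered one, put all later positions out of register.

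Before that gap, the stretch with the widest peaks held 0 cores in 177.9 kb. Its wide peaks lay on a diverged repeat with a best shift of 172, shown by neighbouring units, 170 bases apart, from the widest control peak. Capitals in the second unit mark bases equal to the first at the same position, 66.9% of 172.
Wide peak, unit 1, chr7:61908978-61909149: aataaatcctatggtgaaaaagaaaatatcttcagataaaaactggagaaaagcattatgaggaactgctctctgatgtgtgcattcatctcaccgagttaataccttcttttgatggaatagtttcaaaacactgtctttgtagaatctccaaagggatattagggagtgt
Wide peak, unit 2, chr7:61909148-61909319: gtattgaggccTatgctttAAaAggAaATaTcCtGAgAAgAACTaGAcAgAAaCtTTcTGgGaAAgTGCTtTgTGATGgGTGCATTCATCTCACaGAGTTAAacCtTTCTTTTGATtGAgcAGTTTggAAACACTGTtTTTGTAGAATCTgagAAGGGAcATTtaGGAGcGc
Of the 13 sites in this stretch, the 2 with the wide peaks had this shift. Another 6, farther from the gap and nearer the centromere, lay on a shorter repeat with a best shift of 49. On that side the stretch is bounded by a second 50-kb gap, chr7:61677021-61727020. The gap that distances on chromosome 7 refer to here is chr7:61917158-61967157. The shorter repeat is shown by units from a site that was covered in all 5 knockdown lists and not in control. Its units start 52 bases apart, each placed within 8 bases of the expected start where it matched best. Capitals mark bases equal to those of its first unit, and each later unit matched it at 79.6%.
Short repeat, unit 1, chr7:61784789-61784837: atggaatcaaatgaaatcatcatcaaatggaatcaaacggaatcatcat
Short repeat, unit 2, chr7:61784841-61784889: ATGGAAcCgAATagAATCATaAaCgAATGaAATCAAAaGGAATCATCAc
Short repeat, unit 3, chr7:61784893-61784941: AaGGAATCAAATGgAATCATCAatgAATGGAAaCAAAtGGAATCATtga
The sites at chr7:61814678-61817323 and chr7:61819321-61820307 had no such period, with a match of 31.3% and 34.6% at the best shift, near the median of 31.9% over all tiles, and neither had chr7:61765502-61765831 at 32.9% and chr7:61832442-61832672 at 33.9%. The site at chr7:61739193-61740008 matched best at a shift of 26, with 43.9%. In this stretch, 93.4% of the 61 tiles centred in peaks met the tandem match of 40%, against 43.97% of the 116 outside them.

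The widest control peaks of the windows lay on the chromosome 7 long arm within 50 kb of the assembly gap. They were chr7:61867692-61879066 of 11375 bp, chr7:61880851-61892204 of 11354 bp and chr7:61903280-61915136 of 11857 bp. None of the 3 overlapped an annotated gene, and the nearest was the processed pseudogene ENSG00000233918, 45.5 kb from the first. Together they held 34.6 kb, which was 64.3% of the control coverage in the windows. Coverage is the number of bases within peaks, and every list had peaks on all 3.

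In the DAXX list, 2 peaks took the place of the 3 control peaks. A single peak of 30658 bp, chr7:61867627-61898284, spanned the first and second together with all 1784 bp between them, and a peak of 14400 bp, chr7:61902661-61917060, spanned the third. The control bases of all 3 were covered in full. DAXX knockdown thus had the widest peak of any list in the windows, and its peaks there summed to 45.1 kb, 1.30 times control.

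After HIRA knockdown the same sites held 12 peaks, the widest 6472 bp. They covered 66.3% of the first control peak in 2 pieces, 90.7% of the second in 5 pieces and 93.2% of the third in 3 pieces. Spaces between the pieces were short on the second and the third, with medians of 146 and 190 bp, and 1062 bp on the first. The sum of 35.1 kb was 1.02 times that of control, so the bases were near the control level in 12 peaks instead of 3.

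The HJURP list had 7 peaks there, the widest 8572 bp, and a sum of 23.0 kb, 0.666 times control. They covered 56.3% of the first control peak in 3 pieces, 39.4% of the second in 1 piece and 75.9% of the third in 3 pieces. The piece on the second, chr7:61887732-61893443, reached past the end of the control peak. None of the space between the first and second was covered, against 1090 bp of it after HIRA knockdown.

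The double knockdowns had many short peaks on the same sites. HIRA+DAXX had 17, the widest 560 bp, which summed to 5.99 kb or 0.173 times control. They covered 1.54% of the first control peak with 1 piece of 175 bp, 16.3% of the second in 6 pieces and 29.2% of the third in 9 pieces. HIRA+HJURP had 33, the widest 1348 bp, which summed to 13.4 kb or 0.387 times control. They covered 24% of the first in 10 pieces, 22.5% of the second in 6 pieces and 49.2% of the third in 12 pieces. In every knockdown list the third peak, nearest the gap, was covered to the largest share, which in the DAXX list was the same for all 3.

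**Figure D1:**
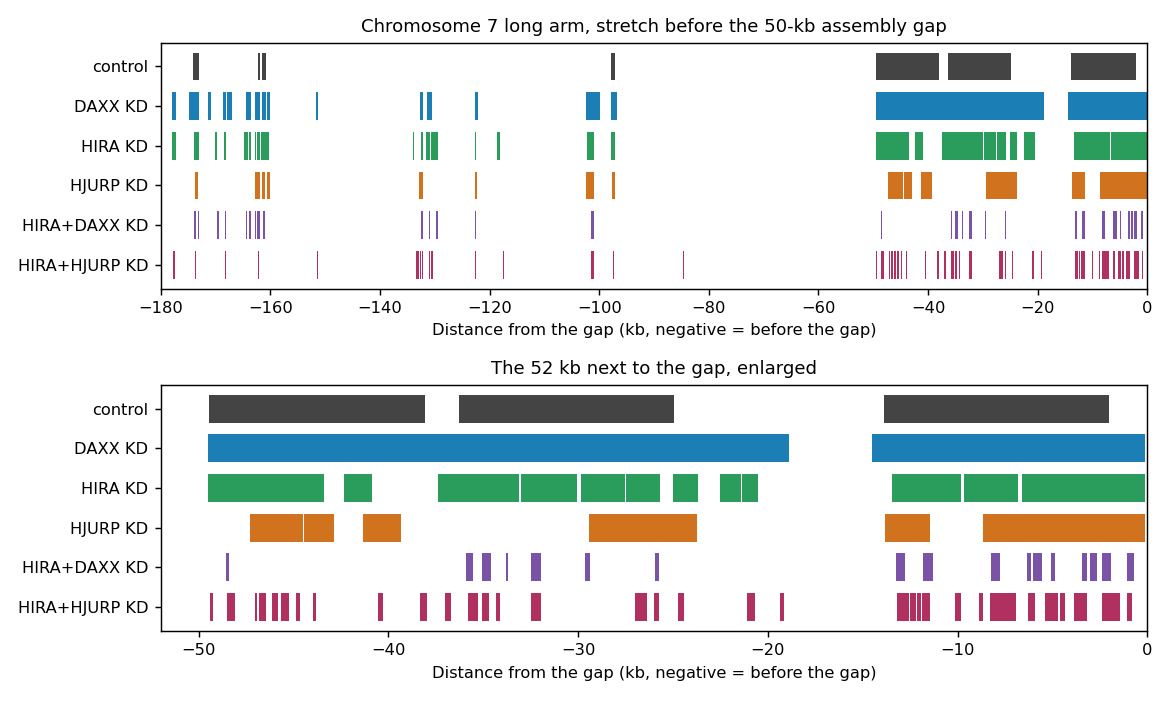
Peaks of each list on chromosome 7 before the 50-kb assembly gap, drawn to scale as distance from the gap in kb, with the 52 kb next to the gap enlarged below (KD, knockdown). The sites of the 3 widest control peaks hold 2 peaks after DAXX knockdown and 33 short peaks after HIRA+HJURP knockdown.

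**Figure D2:**
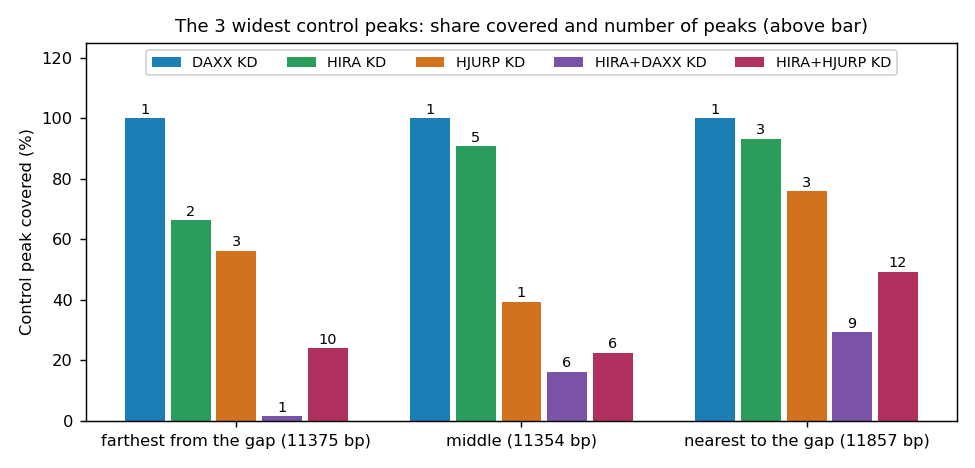
Share of each of the 3 widest control peaks covered by the peaks of each knockdown (bars, %), with the number of those peaks above each bar and the control width in bp on the horizontal axis. DAXX knockdown covered all 3 in full, and HIRA+DAXX covered between 1.54% and 29.2%.

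Peaks also ended close to where the reference ends. The last peak before the assembly gap stopped 97 bp from it after DAXX, 121 bp after HIRA and 92 bp after HJURP knockdown, and 691 and 794 bp from it after HIRA+DAXX and HIRA+HJURP knockdown, against 2021 bp in control. On the other side of the gap, the first peak began 33 bp into the sequence in control, 12 bp after DAXX and HIRA, 8 bp after HJURP, 11 bp after HIRA+HJURP and 877 bp after HIRA+DAXX knockdown. Whether the peaks nearest the gap run on into it cannot be read from this reference.

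On the same stretch, farther from this gap and nearer the centromere, the knockdown lists had further peaks on the short repeat. Within chr7:61752320-61757162, a site with peaks in all lists, control had 2 peaks of 1057 bp in sum, DAXX 4 of 3373 bp, HIRA 6 of 3556 bp, HJURP 4 of 1936 bp, HIRA+DAXX 5 of 1514 bp and HIRA+HJURP 2 of 326 bp. At chr7:61742244-61744090, control had 1029 bp in 1 peak, and the knockdowns had 1819 bp after DAXX, 820 bp after HIRA, 581 bp after HJURP, 575 bp after HIRA+DAXX and 382 bp after HIRA+HJURP. The first site was thus covered more widely than in control in 4 of the 5 knockdown lists, and the second only after DAXX knockdown.

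Several sites had peaks in all 3 single knockdown lists and in no control peak, and all of these comparisons share the same control list. At chr7:61783115-61787726, the short repeat shown above, DAXX had 1518 bp in 2 peaks, HIRA 2492 bp in 5, HJURP 736 bp in 1, HIRA+DAXX 832 bp in 3 and HIRA+HJURP 1332 bp in 5. At chr7:61814678-61817323, a site without a tandem period, each list had 1 peak, of 2646 bp after DAXX, 1319 bp after HIRA, 1428 bp after HJURP, 493 bp after HIRA+DAXX and 470 bp after HIRA+HJURP. These were the widest peaks with no control base in the DAXX, HIRA and HIRA+DAXX lists. A smaller site, chr7:61794449-61795035, had 587, 292, 295, 164 and 123 bp in the same order. The site at chr7:61814678-61817323 ended 4.55 kb before ENSG00000233918, the nearest gene.

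Close to these, chr7:61819321-61820307 had a control peak of 652 bp, and peaks of 987 bp after DAXX, 627 bp after HIRA, 513 bp after HJURP and 287 bp after HIRA+HJURP knockdown, with none after HIRA+DAXX knockdown. It lay 1.56 kb from the same pseudogene. Over the whole stretch before the gap, coverage was 37.3 kb in control and 58.8, 46.1, 28.5, 10.1 and 17.3 kb after DAXX, HIRA, HJURP, HIRA+DAXX and HIRA+HJURP knockdown.

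Beyond the gap the order of the lists was another one, with HJURP knockdown the highest. Its peaks there covered 11.7 kb, 1.75 times the 6.69 kb of control, whereas the DAXX list had 1.45 times and the HIRA list 1.03 times the control coverage. HIRA+DAXX had 0.468 and HIRA+HJURP 0.754 times. Before the gap the ratios were 0.764 for HJURP, 1.57 for DAXX and 1.24 for HIRA. The value of 0.764 rests on the 2 sites of the widest control peaks. Over the other sites before the gap control covered 2.74 kb, and DAXX, HIRA, HJURP, HIRA+DAXX and HIRA+HJURP covered 13.7, 11.01, 5.49, 4.10 and 3.88 kb, which is 2.00 times control for HJURP and above control in every list. Those 2 sites were singled out for the width of their control peaks, so leaving them out takes the largest share of coverage from control. They held 64.3% of its coverage in the windows, against 39.9 to 58.5% in the knockdown lists. In bases they held 34.6 kb in control, and more in DAXX and HIRA, with 45.1 and 35.1 kb. Whether these ratios differ beyond replicate error could not be tested.

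At the site next to the gap, chr7:61967166-61971307, the 4 lists with 4 libraries had close sums. Control covered 3890 bp in 3 peaks, and DAXX, HIRA and HJURP covered 3560, 3460 and 3742 bp in 4 peaks each. HIRA+DAXX covered 1580 bp in 5 peaks and HIRA+HJURP 2275 bp in 7. This site held 11 cores, and all 11 were in control and HJURP peaks. The 5 cores of the stretch that were covered in all 6 lists were all here, including the first 3 printed above.

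A site farther from the gap had the most bases in the HJURP list. At chr7:61974949-61981031 it had 4537 bp in 4 peaks, against 2213 bp in 2 control peaks, 2039 bp in 1 DAXX peak, 2620 bp in 2 HIRA peaks, 651 bp in 3 HIRA+DAXX peaks and 798 bp in 4 HIRA+HJURP peaks. At chr7:61982585-61984581, with no control peak, it had 1536 bp, its widest peak without a control base, against 1876 bp after DAXX, 456 bp after HIRA and 142 bp after HIRA+HJURP knockdown. A peak of 316 bp at chr7:61972904-61973219 was in the HJURP list only. The most distant site, chr7:62002361-62004713, had 2255 bp after DAXX, 670 bp after HJURP, 302 bp after HIRA+DAXX and 1326 bp after HIRA+HJURP knockdown, and none in control or HIRA. In contrast, the control peak of 586 bp at chr7:61990593-61991178 had no counterpart after DAXX or HIRA knockdown, and 524, 306 and 273 bp were covered there after HJURP, HIRA+DAXX and HIRA+HJURP knockdown.

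Cores were counted in the peaks of each list. Of 34 cores in the 37.5 kb after the gap, 16 lay in control peaks, 17 in DAXX, 16 in HIRA, 27 in HJURP, 6 in HIRA+DAXX and 8 in HIRA+HJURP peaks, and 7 in none. Per kb of peak there were 2.39 in control, 1.75 in DAXX, 2.33 in HIRA, 2.31 in HJURP, 1.92 in HIRA+DAXX and 1.59 in HIRA+HJURP, so the higher count of HJURP went with its higher coverage. Cores occurred at 1.88 per kb within peaks of any list and at 0.302 per kb outside them. The tandem match of 40% or more was met by all 11 tiles centred in peaks and also by all 25 outside them, with median matches of 61.4% and 65.7%.

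**Figure D3:**
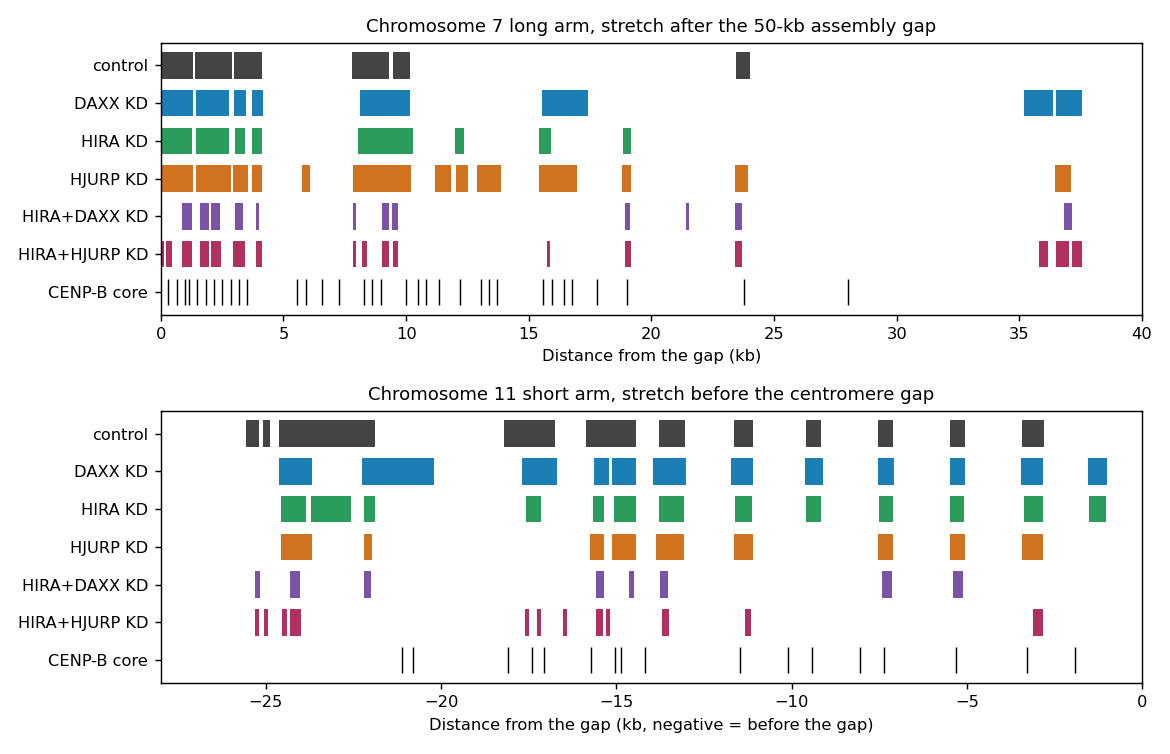
Peaks of each list after the assembly gap of chromosome 7 (top) and before the centromere gap of chromosome 11 (bottom), drawn to scale as distance from the gap in kb, with ticks for matches to the CENP-B core on either strand (KD, knockdown). HJURP knockdown covers 27 of the 34 cores in the top panel, and in the bottom panel the control peaks nearest the gap are spaced evenly, each on 1 core.

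On chromosome 11, the control peaks nearest the centromere gap repeated with the sequence, whereas those farther from it were not evenly spaced. The last 5 before the centromere gap, chr11:51582571-51583109, chr11:51584612-51585052, chr11:51586676-51587101, chr11:51588730-51589150 and chr11:51590780-51591407, were 539, 441, 426, 421 and 628 bp wide. Their starts were 2041, 2064, 2054 and 2050 bp apart, and each held 1 core, the copies printed above. The control peak at chr11:51586676-51587101 was identical to the bases 2047 positions on, and that at chr11:51588730-51589150 matched at 98.3%. The peaks at chr11:51582571-51583109 and chr11:51584612-51585052 matched at 85.9% and 97.3% at a shift of 2046. The nearest gene to all of these, the olfactory receptor pseudogene OR4C50P, lay 54.7 kb from the first of these sites.

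These copies were not covered alike in the knockdown lists. DAXX and HIRA had a peak on each of the 5, and a further one at chr11:51592669-51593213, of 545 and 484 bp, where control had none. HJURP had a peak on 4 and none on the second copy. HIRA+DAXX had peaks on the third and the fourth only, of 292 and 285 bp. HIRA+HJURP covered none of the 5 printed copies, though its peaks of 179 bp at chr11:51582883-51583061 and 292 bp at chr11:51591080-51591371 lay within the first and the last of these control peaks.

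Since these copies are nearly identical, a read may fit several of them. Among words of 76 bases at these 5 sites, the share found once in the reference was 24.5%, 31.1%, 0%, 0% and 44.5% from the first to the last. Words were given the read length of 76 bases, and the libraries included both single-end and paired-end ones. Alignments with a mapping quality under 10 had been removed by the authors. The part of the alignment in which copies carry a peak was not tested. Over the whole stretch the share was 78.5% in control peaks and 55.4% between the peaks of all lists. On chromosome 7 it was 99.4% in control peaks and 79.1% between peaks before the gap, but 85.1% in control peaks, 90.0% in HJURP peaks and 93.4% between peaks after the gap. On chromosome 11 the control bases that a knockdown list covered and those it did not differed in this share, with 69.5% and 99.2% for DAXX, 71.0% and 95.8% for HIRA, 66.2% and 92.2% for HJURP, and 67.0% and 81.1% for HIRA+DAXX. The HIRA+HJURP list had the opposite order, with 90.0% and 75.5%. Before the gap on chromosome 7, where the widest peaks lie, all such shares were at 99.2% or more, among them 100% and 99.3% for HIRA+DAXX.

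Farther from the centromere gap of chromosome 11, the widest control peak of that chromosome, chr11:51569567-51572305 of 2739 bp, was covered to 46.4% after DAXX, 79.0% after HIRA, 41.4% after HJURP, 17.7% after HIRA+DAXX and 18.0% after HIRA+HJURP knockdown, in 2 or 3 pieces. Control peaks of 369 and 201 bp just before it had no counterpart in any single knockdown list, while HIRA+HJURP had a peak on both and HIRA+DAXX on the first. The control peak of 1446 bp at chr11:51576004-51577449 had none after HJURP and HIRA+DAXX knockdown. In all, the 12 control peaks of chromosome 11 covered 9.74 kb, and the knockdowns covered 9.27 kb in 12 peaks after DAXX, 7.03 kb in 13 after HIRA, 5.03 kb in 9 after HJURP, 1.77 kb in 8 after HIRA+DAXX and 2.49 kb in 16 after HIRA+HJURP. Every knockdown list was thus below control on this chromosome, with ratios of 0.951, 0.722, 0.517, 0.182 and 0.255.

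Of the 17 cores in this stretch, 11 were in control peaks, 11 in DAXX, 8 in HIRA, 7 in HJURP, 2 in HIRA+DAXX and 0 in HIRA+HJURP peaks, and 4 in none. Per kb of peak these were 1.17 in control, 1.19 in DAXX, 1.14 in HIRA, 1.39 in HJURP, 1.13 in HIRA+DAXX and 0 in HIRA+HJURP, so the lower counts of HIRA, HJURP and HIRA+DAXX went with lower coverage. All 10 tiles centred in peaks and all 14 outside them met the tandem match of 40%, with medians of 59.7% and 55.3%. The HIRA+HJURP list had 12 peaks and 2.06 kb in this stretch, so it was present there without holding a whole core. A much more distant group of sites, between chr11:48805098 and chr11:48887436, held a control peak of 343 bp on a core at chr11:48887094-48887436. HIRA+HJURP had 4 peaks of 98 to 112 bp in this group, 1 of them within that control peak, and the other lists had 0. Of the 81 tiles outside peaks in this group, 67 or 82.7% met the tandem match of 40%.

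Taking both chromosomes, the DAXX and HIRA lists had more bases than control and the other three had fewer. Coverage was 53.8 kb in control, and 77.8 kb after DAXX, 60.03 kb after HIRA, 45.2 kb after HJURP, 15.0 kb after HIRA+DAXX and 24.8 kb after HIRA+HJURP knockdown. The ratios to control were 1.45, 1.12, 0.841, 0.279 and 0.461. Over all peaks outside the windows they were 2.62, 1.69, 2.16, 0.745 and 1.47, higher in each list than in the windows. Without the pair of sites that hold the 3 widest control peaks, the ratios were 1.71, 1.30, 1.16, 0.470 and 0.595. These sites were chosen by the width of the control peaks, so leaving them out lowers the control sum by construction, and the ratio was higher in all 5 lists. These are values of single lists with no replicate error.

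Peak numbers moved apart from coverage. Every knockdown list had more peaks than the 25 of control, by ratios of 1.48, 2.08, 1.52, 2.08 and 3.36 in the same order. Outside the windows these ratios were 2.39, 2.08, 2.36, 2.52 and 3.91, so more peaks than in control were not particular to the windows. The median width was 694 bp in control, 866 bp after DAXX, 671.5 bp after HIRA, 654 bp after HJURP, 282 bp after HIRA+DAXX and 248.5 bp after HIRA+HJURP knockdown. Peaks of 500 bp or more were 18 of 25 in control, 29 of 37, 30 of 52 and 27 of 38 in the single knockdowns, and 5 of 52 and 9 of 84 in the double knockdowns. In the double knockdowns these were 9.62% (95% Wilson interval 4.18 to 20.6%) and 10.7% (5.74 to 19.1%), against 21.3% and 25.1% of their peaks outside the windows. These intervals cover counting error only, and 17 of the 52 and 33 of the 84 peaks lay at the same 2 sites of the widest control peaks. The control shares were 72% in the windows and 70.5% outside. For DAXX, HIRA and HJURP they were 78.4%, 57.7% and 71.1% in the windows and 74.0%, 65.3% and 73.3% outside. Median widths outside the windows were 273 bp for HIRA+DAXX and 276.5 bp for HIRA+HJURP against 797 bp in control. The part of the library number in these widths was not tested.

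**Figure D4:**
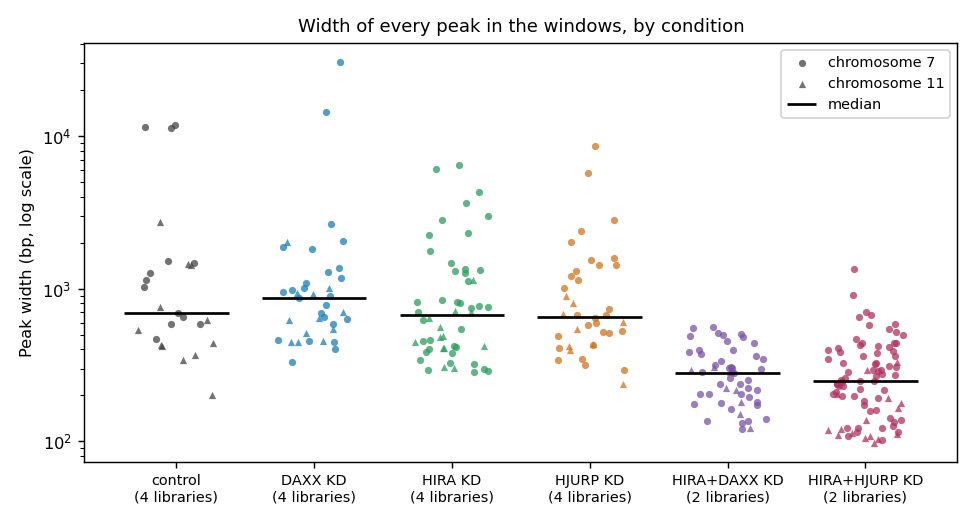
Width of each peak in the windows in bp on a log axis, by condition (KD, knockdown), with the number of ChIP libraries below each name, circles for chromosome 7, triangles for chromosome 11 and a line at the median. The double knockdowns have no peak wider than 1348 bp, and DAXX knockdown has the widest, at 30658 bp.

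Most control peaks were touched in every list, though the bases kept differed widely. DAXX peaks touched 21 of the 25 control peaks (95% Wilson interval 65.3 to 93.6%, counting error only), as did HIRA and HIRA+HJURP peaks, HJURP peaks touched 20 (60.9 to 91.1%) and HIRA+DAXX peaks 18 (52.4 to 85.7%). Over all 408 control peaks the shares touched by the DAXX, HIRA, HJURP, HIRA+DAXX and HIRA+HJURP lists were 86%, 84.3%, 81.6%, 74.8% and 83.8%, within each of these intervals. Of the control bases in the windows, 91.6% were covered after DAXX, 80.2% after HIRA, 61.4% after HJURP, 20.2% after HIRA+DAXX and 32.2% after HIRA+HJURP knockdown. Control bases covered in no other list came to 1.90 kb, and bases covered in all 6 lists to 5.87 kb in 22 intervals.

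Fewer of the knockdown peaks lay wholly outside control peaks here than over each whole list. They were 15 of 37 for DAXX against 68.6% of all its peaks, 20 of 52 for HIRA against 56.4%, 12 of 38 for HJURP against 66.2%, 15 of 52 for HIRA+DAXX against 49.9% and 28 of 84 for HIRA+HJURP against 64.6%. The members' shares were 40.5%, 38.5%, 31.6%, 28.8% and 33.3%, with upper Wilson bounds of 56.5%, 52.04%, 47.5%, 42.3% and 43.9%. These bounds cover counting error only and treat neighbouring peaks as separate. Of the members, 2, 12, 7, 17 and 33 lay at the same 2 sites of the widest control peaks. Whether the shares differ beyond replicate error could not be tested. Bases outside control peaks were 36.7%, 28.2%, 27.1%, 27.4% and 30.3% of each list's coverage. Outside the windows they were 67.1%, 52.8%, 66.1%, 41.9% and 61.3%. Without the pair of sites with the 3 widest control peaks, the shares in the windows were 55.3%, 42.9%, 40.9%, 40.2% and 45.9%. On chromosome 11 alone they were 29.6%, 7.17%, 2.21%, 1.58% and 17.6%. Of the bases outside control peaks, chromosome 7 held 25.8 of 28.5 kb for DAXX, 16.4 of 16.9 kb for HIRA, 12.1 of 12.2 kb for HJURP, 4.09 of 4.12 kb for HIRA+DAXX and 7.07 of 7.51 kb for HIRA+HJURP.

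**Figure D5:**
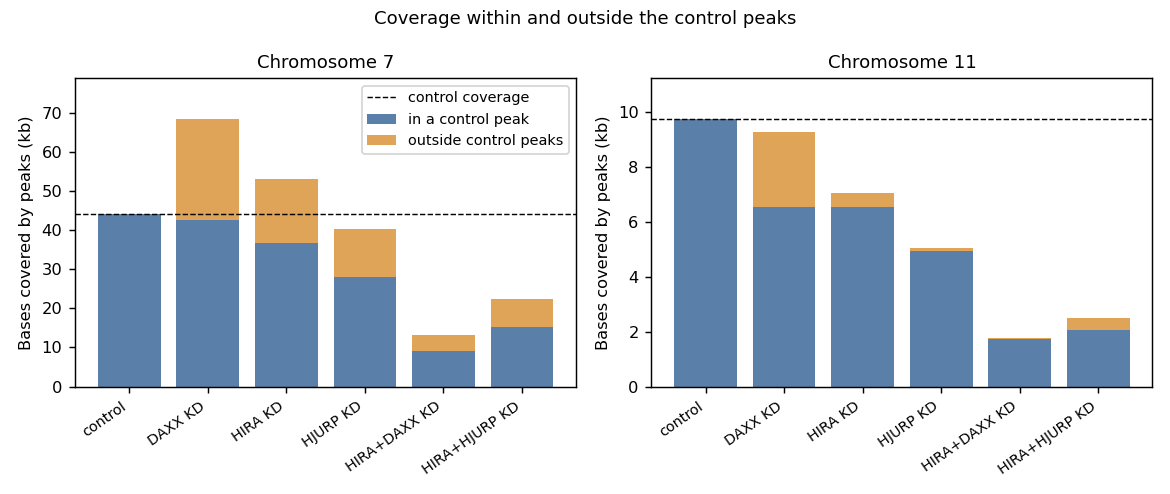
Bases covered by the peaks of each list in kb (KD, knockdown), split into those within and outside control peaks, for chromosome 7 (left) and chromosome 11 (right), with a dashed line at the control coverage. On chromosome 11 every knockdown is below the 9.74 kb of control.

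Splitting, counted as at least 2 knockdown peaks on a control peak, occurred at 3 of 25 control peaks in the DAXX list, and at 7, 5, 8 and 11 in the HIRA, HJURP, HIRA+DAXX and HIRA+HJURP lists. Over all 408 control peaks the shares were 4.66%, 10.8%, 7.84%, 24.5% and 29.9%, against 12%, 28%, 20%, 32% and 44% in the windows. The most pieces on 1 control peak were 2, 5, 3, 9 and 12. The window shares rest on 25 peaks, have no interval and take no account of control peak width. The widest control peaks were all split in the HIRA and HIRA+HJURP lists, some of them in HJURP and HIRA+DAXX, and none in DAXX. Whether the shares differ beyond replicate error could not be tested. In the opposite direction, DAXX had 2 peaks that each lay on 2 control peaks, HIRA and HJURP 1 each, and the double knockdowns 0. DAXX peaks covered 11 of the 25 control peaks in full, HJURP 4, HIRA 1 and the double knockdowns 0.

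Most peaks of the double knockdowns shared bases with peaks of the lists with 4 libraries, in the windows and over the whole lists. Of the 52 HIRA+DAXX peaks, 50 touched such a peak (95% Wilson interval 87.02 to 98.9%), against 86.7% of all 1018, and 48 lay wholly inside one (81.8 to 96.97%), against 80.2%. Of the 84 HIRA+HJURP peaks, 77 touched one (83.8 to 95.9%), against 83.2%, and 73 lay wholly inside (78.1 to 92.5%), against 73.4%. Here too the intervals cover counting error only, with 17 of the 52 and 33 of the 84 peaks at the sites of the widest control peaks. Whether the windows differ from the whole lists beyond replicate error could not be tested. The bases covered were 97.6% and 95.02%. The DAXX list alone covered 90.7% of HIRA+DAXX and 90.0% of HIRA+HJURP bases, and the HIRA list 90.1% and 81.0%.

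When peaks of any list within 1000 bp of each other were joined, the windows held 33 sites, 21 on chromosome 7 and 12 on chromosome 11. Control had a peak at 16 of them, DAXX and HIRA at 23 each, HJURP at 21, HIRA+DAXX at 18 and HIRA+HJURP at 27. All 6 lists had a peak at 8 sites, 6 on chromosome 7 and 2 on chromosome 11, and a single list had one at 6 sites. Of those 6, 4 were in the HIRA+HJURP list, 1 in HJURP and 1 in HIRA+DAXX, and they spanned 98 to 316 bp. No site overlapped an annotated gene.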

How the data were processed

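Native CENP-A ChIP-Seq was done on SW480 cells in 40 libraries, 20 ChIP and 20 input, in 6 siRNA conditions. After trimming with Trimmomatic, the authors aligned reads with Bowtie2 2.2.6 to hg19, removed alignments with a mapping quality under 10, ran MACS on each ChIP library with its input as background and used Bedtools to merge the peaks of replicates. A merged peak had to overlap peaks of at least 3 replicates. The rule for conditions with 2 libraries is not given in the sources used here. The deposited values are positions in bases, where a merged peak starts and where it ends, with no score, count or p-value, so the read depth behind a peak is unknown, and no other column was used. Filters and merging by the authors can set which repeat copies carry a peak and how wide it is.

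Each list was assigned to the condition in its name. Coverage was the sum of peak widths, and shared bases were found by intersection of positions in Python 3.11.15 with numpy 2.4.6. A peak was common when it shared at least 1 base. Wilson intervals are from scipy 1.17.1, sequences were read with pysam 0.24.0 from GRCh37, within whose chromosome lengths all 5748 peaks end, and genes are from GENCODE release 44 lifted to GRCh37. Tandem match was the share of bases equal to the base a fixed number of positions on. The figures were drawn with matplotlib 3.10.9. Interval, word and repeat code was tested on simulated data.

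The regions named are the 3 widest control peaks, the widest of each window, the widest peak of each knockdown with no control base, and sites by their pattern over the lists. A few further sites were named after their values were seen. Windows, lists and rules were chosen with earlier results of these data known.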

Additional observations from a re-analysis of the deposited data

How the results depend on the processing

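Of 114 alternative values, 74 moved by no more than 1.5 times without crossing the control level, or, for a share of bases, stayed within the Wilson interval that share would have with the number of peaks as its n (75.03 to 97.8% for the kept share of DAXX, 40.7 to 76.6% for that of HJURP), and 40 did not. Among the 74 were the coverage and number ratios of every knockdown list with any peak sharing a base with a window. These could not move, because no peak crossed a window edge. The main limits are 1 list per condition, 2 libraries behind each double knockdown, a reference with gaps at the peaks' edges and an unknown depth. No replicate could be left out. No paired analysis was possible because each condition's replicates were merged into 1 list.

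Without the chromosome 7 long-arm window, leaving chromosome 11, the coverage ratios of DAXX, HIRA, HJURP, HIRA+DAXX and HIRA+HJURP were 0.951, 0.722, 0.517, 0.182 and 0.255, so DAXX and HIRA changed side. The number ratios became 1 for DAXX, with 12 peaks in both lists, 1.08 for HIRA, 0.75 for HJURP, 0.667 for HIRA+DAXX and 1.33 for HIRA+HJURP, the share of control bases kept after DAXX knockdown 67.0%, and the new share 7.17% for HIRA, 2.21% for HJURP, 1.58% for HIRA+DAXX and 17.6% for HIRA+HJURP. With only peaks of at least 500 bp, the coverage ratios were 0.0514 for HIRA+DAXX and 0.127 for HIRA+HJURP and the number ratios 0.278 and 0.50. With peaks within 1000 bp merged, the coverage ratios were 0.458 and 0.743, and for HIRA+HJURP the number ratio was 2.24 and the kept share 55.9%. Counted as control peaks with at least 1 shared base, the kept shares were 80.0% for HJURP, 72.0% for HIRA+DAXX and 84.0% for HIRA+HJURP. Counted as peaks covered by less than 50%, the new share of HIRA was 42.3%. Without the pair of sites of the 3 widest control peaks, an alternative chosen after seeing the data, the coverage ratios were 1.16 for HJURP and 0.470 for HIRA+DAXX, and the new shares 55.3% for DAXX, 42.9% for HIRA and 45.9% for HIRA+HJURP. When only overlapping peaks were joined, sites numbered 55, 28 of them with HIRA+DAXX. When peaks within 10000 bp were joined they numbered 11, with 6 in control, 7 in DAXX, 6 in HIRA, 7 in HJURP, 7 in HIRA+DAXX and 11 in HIRA+HJURP. Beyond what each alternative leaves out, the cause was not tested.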
